A study of Mus musculus with 7 samples.

Results

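Des, Speg, Obsl1 and Slc4a3 are 4 neighbouring genes of mouse chromosome 1 that lie between the left breakpoint of the Inv1 inversion and the border of the Epha4 domain, and they were inverted together with an enhancer region in all 4 inversion alleles. They were selected by name, as 4 of the 103 genes for which a contact value with that enhancer region was deposited. Capture Hi-C, which counts ligations between pairs of loci inside an enriched window, was carried out over 10 Mb around Epha4. The groups were limb buds (forelimb and hindlimb, titled Distal) of E11.5 embryos carrying the CRISPR/Cas9 inversions Inv1, Inv2, Inv3 or Inv4, limb buds of Inv1DelCTCF, which carry Inv1 and a deletion named after CTCF, an Inv1 embryonic stem cell (ESC) line, and WT limb buds. Each condition was 1 library, and each limb bud library pooled 10 embryos. All differences below are therefore between single libraries, have no replicate check and carry no test. G4 ESC is given as the cell type of all 7 libraries, and only the title and the series design tell the ESC library apart. Gene tables existed for Inv1 to Inv4 and WT, and maps for all 7 libraries.

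The Inv1, Inv1DelCTCF, Inv1 ESC and WT maps held 3903664, 3997528, 4305910 and 5155179 read pairs, recovered from the balanced values. The Inv2, Inv3 and Inv4 maps were deposited after subtraction of a weighted WT map and had negative values at 29.7%, 31.3% and 28.8% of the listed bin pairs. What follows uses the remainder as deposited, so shares and folds of WT in Inv2, Inv3 and Inv4 also depend on the weight subtracted. Whether the subtracted WT signal stands for a WT chromosome in the same embryos is not stated in the labels.

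Chromosomes fold into domains within which loci meet more often than across the borders between them, and many borders are bound by CTCF, a protein that stalls loop extrusion by cohesin. An enhancer mostly acts on promoters that it can meet, so an inversion that moves a border or an enhancer can change which promoters it meets. Striated muscle contracts through sarcomeres, repeated arrays of actin and myosin that are tied to each other and to the cell surface by scaffold proteins. Des encodes desmin, the intermediate filament that links neighbouring myofibrils. Speg encodes a kinase of striated muscle that is related to myosin light chain kinases, and Obsl1 encodes an obscurin-like cytoskeletal adaptor that is not limited to muscle. Slc4a3 encodes the chloride and bicarbonate exchanger AE3 of heart and brain. At the stage studied the limb bud consists mostly of mesenchyme into which muscle progenitors have migrated. Contact maps of whole limb buds average over these cells, and they measure proximity of DNA, not transcription, so the muscle label rests on the known roles of the genes and was not checked against expression.

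The start-site sequences of the 4 genes are shown because the readout is contact of these sites, and because chromatin was cut at GATC, the DpnII site, which sets where a fragment can be ligated. All 4 genes were found in RefSeq, and each sequence covers 250 bases before to 50 bases after the outermost start that RefSeq lists. The build is GRCm38.p6, which differs from the mm9 build of the maps. The Des window is chr1:75360042-75360341 (plus strand), that of Speg chr1:75375047-75375346 (plus strand), that of Obsl1 chr1:75506403-75506702 (minus strand) and that of Slc4a3 chr1:75546212-75546511 (plus strand). Sequences run 5′ to 3′, with GATC in capitals.
Des: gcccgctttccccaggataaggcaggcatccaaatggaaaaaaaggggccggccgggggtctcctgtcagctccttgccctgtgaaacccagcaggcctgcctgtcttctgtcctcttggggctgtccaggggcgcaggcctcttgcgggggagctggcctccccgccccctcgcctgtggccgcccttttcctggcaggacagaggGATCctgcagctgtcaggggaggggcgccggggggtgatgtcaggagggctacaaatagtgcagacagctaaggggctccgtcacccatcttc
Speg: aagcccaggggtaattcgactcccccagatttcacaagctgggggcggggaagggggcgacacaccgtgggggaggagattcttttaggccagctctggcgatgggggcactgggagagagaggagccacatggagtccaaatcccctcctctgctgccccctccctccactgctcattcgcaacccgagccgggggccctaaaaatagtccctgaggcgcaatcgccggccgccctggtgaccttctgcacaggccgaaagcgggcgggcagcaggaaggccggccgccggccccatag
Obsl1: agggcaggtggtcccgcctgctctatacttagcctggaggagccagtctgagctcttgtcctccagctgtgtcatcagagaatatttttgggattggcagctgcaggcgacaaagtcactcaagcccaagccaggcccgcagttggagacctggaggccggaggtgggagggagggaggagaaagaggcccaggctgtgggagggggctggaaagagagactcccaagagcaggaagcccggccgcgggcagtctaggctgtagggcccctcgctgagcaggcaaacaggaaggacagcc
Slc4a3: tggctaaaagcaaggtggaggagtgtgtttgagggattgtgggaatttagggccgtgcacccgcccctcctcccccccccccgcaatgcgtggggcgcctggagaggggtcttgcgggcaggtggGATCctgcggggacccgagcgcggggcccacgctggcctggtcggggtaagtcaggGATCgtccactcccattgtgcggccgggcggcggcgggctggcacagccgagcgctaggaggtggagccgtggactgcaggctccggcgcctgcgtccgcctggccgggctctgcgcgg
The Des window held 1 GATC and the Slc4a3 window 2, while GATC was not found in the windows of Speg and Obsl1. Among the first starts of 27025 mouse genes, 48.0% had a GATC in a window of this length. The E-box letters CANNTG, the same on both strands, occurred 2 times at Des, 1 time at Speg, 4 times at Obsl1 and 1 time at Slc4a3, and were present in 72.1% of all windows. A MEF2 box, searched by its usual consensus on both strands, was found 1 time at Speg and in 3.29% of all windows. No CArG box (1.59% of all windows) and no TATAAA on either strand (14.2%) was found in the 4 windows. GC content was 65.3% at Des, 65.7% at Speg, 62.0% at Obsl1 and 71.7% at Slc4a3, against a median of 52.7% over all windows. Speg has 4 starts in the RefSeq table, and the gene tables give 1 value for it.

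The gene tables addressed how strongly each start site met the enhancer region on each chromosome. On the deposited scales, 14 of the 16 values of a gene in an inversion were above that of the gene in WT, 3 were at least 2-fold above and 0 were at least 2-fold below, but 7 of the 16 were above WT with the tables centred on their median gene and 2 with the tables scaled to the same sum. On each of these scales the highest ratio was that of Speg in Inv3. The genes were above Epha4 of the same table in 15 of the 16 cases and above it in none of the 4 in WT. Epha4 itself ranked 68th (Inv1), 32nd (Inv2), 39th (Inv3) and 58th (Inv4) of 103 genes, against 1st in WT. Many other genes were therefore above it too in the inversions, and no gene could be in WT. The sources used here do not give the limits of the enhancer region. Tables of Inv2, Inv3 and Inv4 held values below 0 for 25, 13 and 12 genes, against 0 in WT, so they have no true zero and their ratios to WT depend on where it was set. Values are in the authors' scaled units, with 1 scale per table, so a difference between tables also holds any difference in scale. Log2 ratios were taken on the value plus a pseudocount of 0.5, and 2-fold refers to these ratios.

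Des was at 1.40 (Inv1), 2.68 (Inv2), 2.32 (Inv3) and 4.16 (Inv4), against 1.93 in WT. Inv4 was thus the highest and Inv1 the only inversion below WT. The log2 ratios were -0.36 (Inv1), 0.39 (Inv2), 0.21 (Inv3) and 0.94 (Inv4), none of which reached 2-fold.

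Speg varied most among the 4 genes. It was at 2.01 (Inv1), 0.701 (Inv2), 6.91 (Inv3) and 5.02 (Inv4), against 1.18 in WT. Inv3 and Inv4 stood above WT and Inv2 below it. The log2 ratios were 0.58, -0.48, 2.14 and 1.71 in Inv1 to Inv4. Speg shares all 5 values with the neighbouring Gm15179, so the value belongs to an interval that holds both start sites.

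Obsl1 was at 4.21 (Inv1), 2.16 (Inv2), 5.49 (Inv3) and 1.88 (Inv4), against 1.87 in WT. Inv1 and Inv3 were the high libraries, and Inv4 differed from WT by 0.0141. The log2 ratios were 0.992, 0.17, 1.34 and 0.0085, so that Inv3 passed the 2-fold limit and Inv1 lay just inside it, although Inv1 was at 225% of WT without the pseudocount. Obsl1 shares all values with Inha, which encodes the alpha subunit of inhibin.

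Slc4a3 had the highest value of the 4 genes in every table except that of Inv3, where Speg was higher. It was at 5.57 (Inv1), 4.26 (Inv2), 5.80 (Inv3) and 7.13 (Inv4), against 3.91 in WT. All 4 inversions were above WT, with log2 ratios of 0.46, 0.11, 0.51 and 0.79, within 2-fold throughout.

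**Figure D1:**
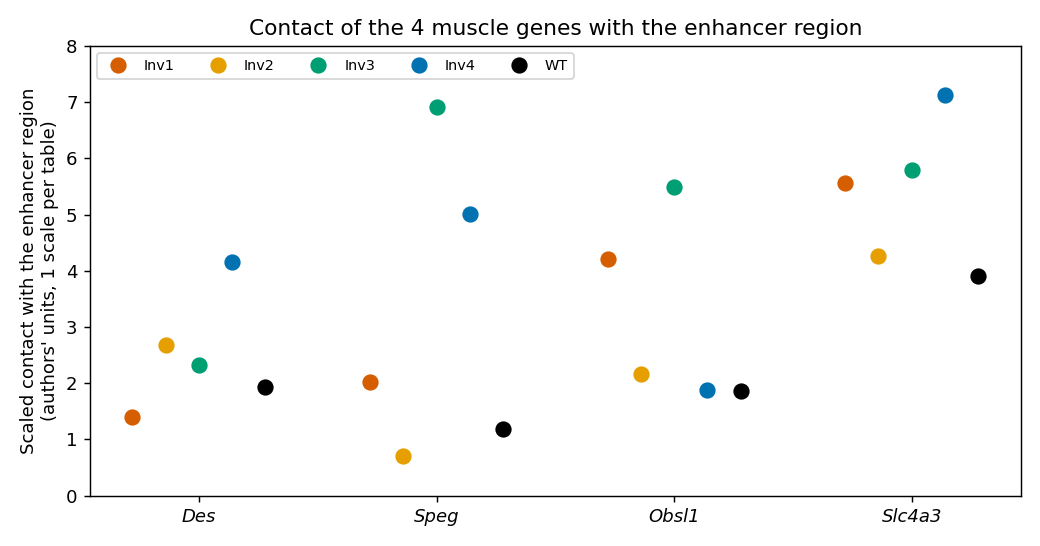
Scaled contact with the enhancer region (vertical axis, authors' units with 1 scale per table) for the 4 genes along the horizontal axis, 1 point per library and no error bar because each condition was 1 library. Slc4a3 lies between 3.91 and 7.13 in all 5 tables, while Speg spreads from 0.701 in Inv2 to 6.91 in Inv3.

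The counts of genes past 2-fold have to be read against those of all 103 genes. In Inv1, 0 of the 4 genes were at least 2-fold above WT and 0 below, against 35.9% and 3.88% of all genes. In Inv2 both counts were again 0, against 19.4% above and 16.5% below. In Inv3, Speg and Obsl1 were above, against 45.6% of all genes, and none below (10.7%). In Inv4, Speg was above, against 52.4%, and none below (6.8%). The share of the 4 genes called was thus near or under that of all genes in each inversion. Their median log2 ratio was 0.52 (Inv1), 0.14 (Inv2), 0.93 (Inv3) and 0.86 (Inv4), and that of all genes 0.62, 0.0044, 0.81 and 1.08.

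The direction of most of these ratios depended on the scale. Centred on the median gene of each table, the median of the 4 genes was -0.10 (Inv1), 0.13 (Inv2), 0.12 (Inv3) and -0.22 (Inv4). Speg in Inv3 was then the only one at least 2-fold above WT (1.33, against 23.3% of all genes above and 28.2% below), and Obsl1 in Inv4 the only one at least 2-fold below (-1.08, against 23.3% above and 24.3% below). In Inv1 and Inv2 the count was 0 in both directions on this scale, against 20.4% above and 12.6% below in Inv1 and 19.4% above and 16.5% below in Inv2. With the tables scaled to the same sum, the median was -0.96 (Inv1), -0.64 (Inv2), -0.51 (Inv3) and -0.85 (Inv4). The highest gene had 22.99 (Inv1), 20.04 (Inv2), 36.4 (Inv3) and 33.9 (Inv4), against 7.68 in WT. Such values enter the sum, so strong gains of single genes lower the ratios of all others on this scale. On this scale 0 of the 16 values were at least 2-fold above WT and 3 at least 2-fold below, namely Des (-1.50) and Slc4a3 (-1.20) in Inv1 and Obsl1 (-1.32) in Inv4. Among all genes, 17.5% (Inv1), 13.6% (Inv2), 12.6% (Inv3) and 15.5% (Inv4) were above, while 11.7% (Inv1), 16.5% (Inv2), 12.6% (Inv3) and 11.7% (Inv4) were below. A change shared by most genes and a difference in scale cannot be told apart here.

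**Figure D2:**
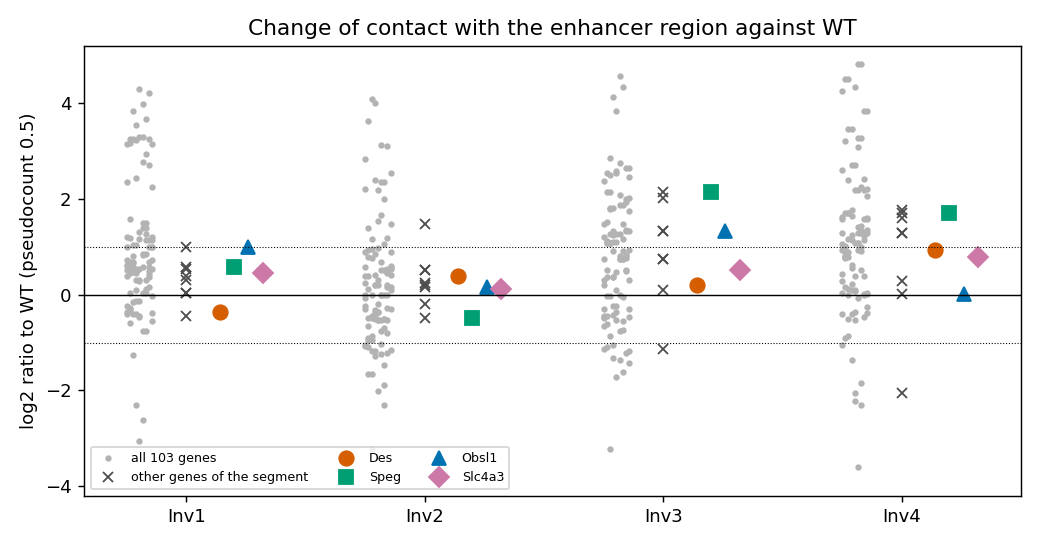
Log2 ratio to WT (vertical axis, pseudocount 0.5) in each inversion for all 103 genes (grey points), the other genes between Resp18 and the Epha4 block (crosses) and the 4 muscle genes (symbols). Dotted lines mark 2-fold. The 4 genes lie between -0.48 and 2.14, inside the range of all genes.

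Ranks within a table need no common scale, but those of Inv2, Inv3 and Inv4 order a score with negative values. That order may not be comparable with the order of the WT signal. Of 103 genes, Des ranked 43rd (Inv1), 19th (Inv2), 36th (Inv3) and 26th (Inv4), against 11th in WT. Speg ranked 32nd, 40th, 6th and 17th in Inv1 to Inv4, against 17th in WT. For Obsl1 the ranks were 25th, 22nd, 13th and 51st, against 12th in WT, and for Slc4a3 20th, 11th, 9th and 13th, against 6th. The genes stood further down the table than in WT in 14 of the 16 cases, at the same rank for Speg in Inv4 and further up for Speg in Inv3. How many of all 103 genes moved down was not counted. With WT ranks from 6th to 17th of 103, these genes had more room to move down than up. A lower rank is therefore not by itself a loss of contact. The top rank was held by Ptprn in Inv1 (22.99), Nhej1 in Inv2 (20.04), Fev in Inv3 (36.4) and Prkag3 in Inv4 (33.9), against Epha4 in WT (7.68).

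Relative to Epha4, the ephrin receptor gene that has the highest contact in WT, the 4 genes changed places. Slc4a3 was at 11.4, 2.77, 2.91 and 5.69 times Epha4 in Inv1 to Inv4, against 0.509 times in WT. Des was at 2.88, 1.74, 1.16 and 3.32 times, against 0.252 times in WT. Obsl1 was at 8.64, 1.40, 2.75 and 1.499 times, against 0.243 times in WT. Speg was at 4.14, 0.456, 3.46 and 4.00 times, against 0.154 times in WT, so that Speg in Inv2 was the one value below Epha4. Epha4 itself was at 0.487, 1.54, 1.995 and 1.25 in Inv1 to Inv4, against 7.68 in WT, and this lower level enters every one of these ratios.

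With 1 library per condition, the scatter within a table is the only measure of error. The 35 outermost genes had differences to WT with an SD of 0.321 (Inv1), 0.406 (Inv2), 0.608 (Inv3) and 0.601 (Inv4), and 12 of the 16 differences of the 4 genes were larger than it. The share of all genes past this SD was not counted, and the scatter of the outermost genes may not hold for the 4 genes. The median step between neighbouring values among the genes from Dnpep to Slc4a3 was 0.452 (Inv1), 1.31 (Inv2), 3.01 (Inv3) and 2.63 (Inv4), against 1.01 in WT. Of the 16 differences, 6 exceeded the larger of the 2 steps: Obsl1 (2.34) and Slc4a3 (1.66) in Inv1, Speg (5.72) and Obsl1 (3.62) in Inv3, and Speg (3.83) and Slc4a3 (3.22) in Inv4. The 4 differences of Inv2, the largest of which was that of Des (0.746), were all smaller than the step. Other genes of the neighbourhood passed the step too. In Inv4 these were Dnpep (3.10), Gmppa (4.49), Asic4 (-3.47) and Chpf (4.97), while Stk11ip (0.769) did not. Passing it therefore does not set the 4 genes apart from their neighbours.

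The 4 genes were compared with the rest of their neighbourhood, the 12 genes that follow Resp18 and precede the Epha4 block in the tables, which hold 9 distinct sets of values. The median over these 9 was 2.86 (Inv1), 3.53 (Inv2), 5.37 (Inv3) and 4.16 (Inv4), against 1.93 in WT. Of the 9, 7, 7, 8 and 8 were above WT in Inv1 to Inv4. Asic4, a member of the acid-sensing ion channel family, was at 2.86, 3.53, 4.37 and 0.603, against 4.08 in WT, and it had the highest WT value of the neighbourhood. Its log2 ratio of -2.05 in Inv4 stands between Gmppa, an enzyme gene of sugar nucleotide metabolism (1.77), and Chpf, a chondroitin synthesis gene (1.28), so single values of this neighbourhood can differ widely from those of adjacent genes. Stk11ip, which encodes a partner of the kinase Stk11, did so in Inv3, at 1.14 against 3.10 in WT. Dnpep, an aminopeptidase gene and the first of them in gene order, was at 1.69, 3.69, 5.64 and 4.11, against 1.01 in WT.

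Spearman's rho between gene order and value over the 9 distinct sets was 0.97 (Inv1), 0.47 (Inv2), -0.05 (Inv3) and 0.067 (Inv4), against 0.68 in WT. These are descriptions across genes of 1 library each. Values increased toward Slc4a3 most regularly in Inv1, and Speg stood above Obsl1 in Inv3 and Inv4 but below it in Inv1, Inv2 and WT.

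By the distance of log2 values over the 5 tables, the genes outside the neighbourhood with the most similar pattern were Mir6343 (distance 1.99), Gm216 (2.195) and Vil1 (2.21) for Des, and Rnf25 (1.62), Ctdsp1 (1.962) and Usp37 (2.02) for Speg. For Obsl1 they were Wnt10a (2.21), Ccdc108 (2.33) and Cnppd1 (2.45), and for Slc4a3 Ccdc108 (2.35), Resp18 (2.87) and Ttll4 (2.96). Leaving out genes that share a value, the nearest gene within the neighbourhood was closer still for each: Gmppa for Des (1.13) and Speg (1.10), Asic4 for Obsl1 (1.68) and Chpf for Slc4a3 (0.869).

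Of 10 listed muscle genes, 6 are in the tables. Beside the 4 genes these are Prkag3, which encodes a muscle subunit of the AMP-activated kinase, and Pax3, a transcription factor of muscle progenitors. Prkag3 was at 1.61 (Inv1), 2.07 (Inv2), 10.5 (Inv3) and 33.9 (Inv4), against 1.01 in WT, and its log2 ratio of 4.51 in Inv4 compares with 0.0085 to 1.71 for the 4 genes. Pax3 was at 0.963, -0.870, 0.984 and -0.808, against 1.98 in WT, with log2 ratios of -0.76, -2.31, -0.74 and -2.31, where values below 0 were taken as 0 and have no order among themselves. The 6 genes thus did not move together.

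The tables give no positions, so the maps were used for the segment that holds the 4 genes rather than for each gene. On chromosome 1 (mm9) the right end of Inv2, at 75.90 Mb, was taken for all alleles, and with it the inverted segments began at 75.27 Mb (Inv1), 75.13 Mb (Inv2), 74.93 Mb (Inv3) and 74.80 Mb (Inv4). The insulation boundary nearest the right join lay at 75.86 Mb (Inv1), 75.88 Mb (Inv2), 75.89 Mb (Inv3) and 75.87 Mb (Inv4). Its log2 depth was 1.02 (Inv1), 0.60 (Inv2), 0.92 (Inv3) and 1.22 (Inv4), and no boundary was found there in WT. A boundary need not lie at the join itself, so it does not fix the edges, which are approximate. Within the segment, the fitted bin factors correlated with those of WT read backwards at 0.537 (Inv1), 0.971 (Inv2), 0.720 (Inv3) and 0.687 (Inv4), and at -0.173 to -0.022 when read forwards. In Inv2 to Inv4 these factors came from the subtracted WT map, so their likeness to WT is built in and shows only the order in which that map was laid out. The muscle gene segment was taken as 75.29 to 75.60 Mb, between the Inv1 breakpoint and the WT domain border at 75.61 Mb. It was compared with the moved part of the Epha4 domain (75.63 to 75.88 Mb), which was inverted with it, and with the remainder of the domain, from here on its rest (75.92 to 77.50 Mb), which was not. In WT the moved part lies between the muscle gene segment and the rest of the domain. In Inv1 the far end of the segment is joined to the rest of the domain, and in Inv2, Inv3 and Inv4 140, 340 and 470 kb of gene-dense sequence lie in between by these edges.

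The muscle gene segment met the moved part of the Epha4 domain more often in each of the 4 inversions than in WT. The share of its contacts was 3.79% ± 0.0393 (Inv1), 4.55% ± 0.0804 (Inv2), 4.42% ± 0.0853 (Inv3) and 4.996% ± 0.0916 (Inv4), against 2.75% ± 0.0286 in WT (counting standard errors). That is 1.38 to 1.82 times WT, and in Inv2 to Inv4 the fold also depends on the WT weight subtracted. In Inv1 the share rests on 10085 read pairs and in WT on 9914. The 95% counting intervals of all 4 differences excluded 0, and that of the smallest, in Inv1, ran from 0.950 to 1.14 percentage points. They cover counting error only and are no test between conditions. They treat both libraries as independent, but the Inv2 to Inv4 values already hold subtracted WT signal, so theirs are too narrow. The sequence between the 2 regions is unaltered in order, and the border between them had a depth of 0.96 (Inv1), 1.18 (Inv2), 1.31 (Inv3) and 1.22 (Inv4), against 1.48 in WT, on the log2 insulation scale. Depth is measured against the flanks within 300 kb, which reach past the joins, and the Inv2 to Inv4 maps are subtracted. A lower depth is therefore not by itself a change at the border. Whether it has a part in the higher share was not tested.

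Contact of the segment with the rest of the Epha4 domain differed in direction between inversions. It was 17.8% ± 0.0785 in Inv1 and 11.1% ± 0.132 in Inv2, above the 9.32% ± 0.0520 of WT. It was 6.78% ± 0.128 in Inv3 and 5.44% ± 0.128 in Inv4, below WT. The order of the 4 shares is the reverse of that of the length of sequence placed in between. The Inv1 map is unsubtracted, whereas the shares of Inv2 to Inv4 also depend on the WT weight subtracted. The 4 shares are therefore not like measures. Relative to the mean contact at the same distance, observed over expected contact was 1.34 (Inv1), 1.004 (Inv2), 0.754 (Inv3) and 0.643 (Inv4), against 1.01 in WT, so the rise in Inv2 was not seen on that scale.

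**Figure D3:**
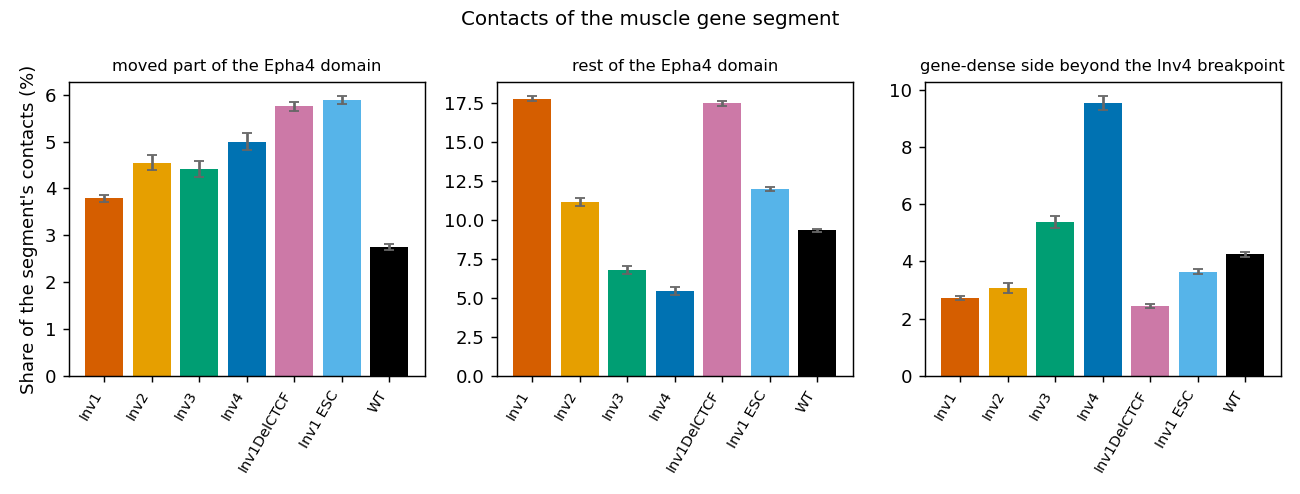
Share of the muscle gene segment's contacts (vertical axes, percent, each starting at 0) with 3 regions in the 7 libraries, with 95% counting intervals as bars. The share with the moved part is lowest in WT (2.75%), and the share with the rest of the domain is highest in Inv1 (17.8%).

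The outer end of the segment had the larger share with the rest of the domain in Inv1, Inv2 and Inv3, whereas the border end had it in WT, and the ends of Inv4 differed by less than 2 standard errors. The outer 100 kb, nearest the Inv1 breakpoint, had a share of 25.7% ± 0.159 (Inv1), 14.9% ± 0.233 (Inv2), 7.63% ± 0.206 (Inv3) and 5.96% ± 0.202 (Inv4), against 5.98% ± 0.0762 in WT. The 100 kb next to the border had 11.3% ± 0.112 (Inv1), 8.90% ± 0.253 (Inv2), 6.51% ± 0.261 (Inv3) and 5.51% ± 0.266 (Inv4), against 15.1% ± 0.108 in WT. The border end was thus below WT in all 4 inversions, and the outer end above it in Inv1, Inv2 and Inv3, while the outer end of Inv4 differed from WT by less than the counting error. Which bins hold the start sites of the 4 genes is not known from the files, so these shares belong to the 2 ends and not to single genes.

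Single bins gave the same picture. In Inv1, 24 of 31 bins were above WT, namely all those from 90 kb outwards, and in Inv2 19 were, namely all those from 140 kb outwards. In Inv3, 12 of 31 bins were above WT, and in Inv4 6. The outermost bin, 320 kb from the border, had a share of 41.7% (Inv1), 23.2% (Inv2), 9.85% (Inv3) and 7.28% (Inv4), against 4.84% in WT. The innermost bin, 20 kb from the border, had 9.89%, 9.73%, 9.32% and 5.99%, against 21.9% in WT.

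**Figure D4:**
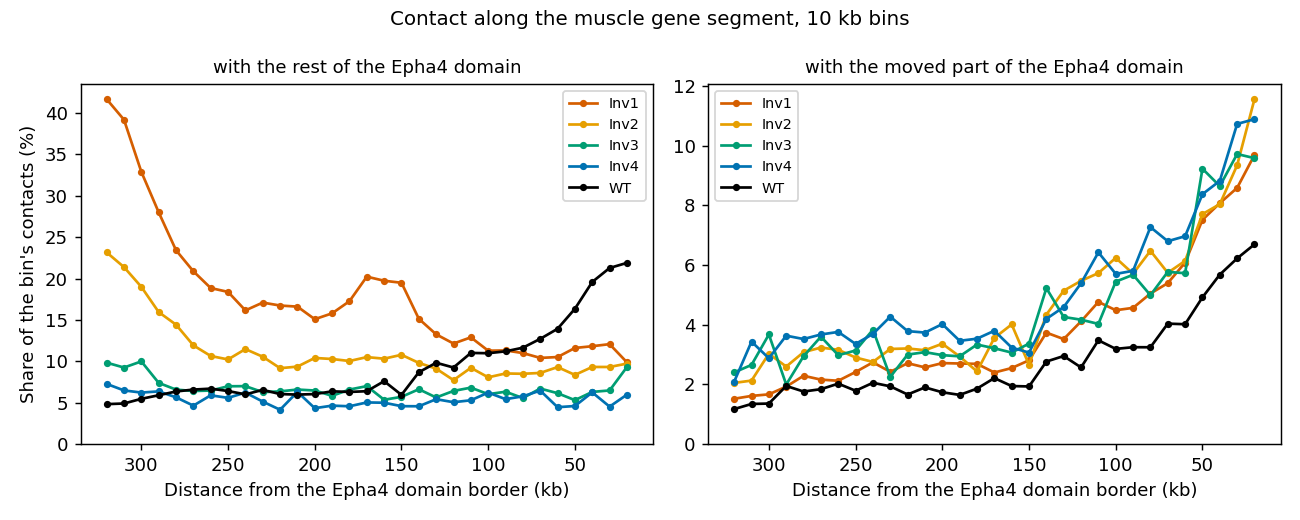
Share of each 10 kb bin's contacts (vertical axes, percent) with the rest of the Epha4 domain (left) and with its moved part (right), by distance from the domain border (horizontal axes, kb, the breakpoint end on the left), in Inv1 to Inv4 and WT. In the left panel Inv1 runs from 41.7% at the outer end to 9.89% beside the border, and WT from 4.84% to 21.9%.

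Contact with the moved part, which holds its place beside the border end, was higher at the border end than at the outer end in all 5 limb bud libraries compared here and at a higher level in the inversions. In the 100 kb next to the border it was 6.42% ± 0.0884 (Inv1), 7.27% ± 0.177 (Inv2), 6.88% ± 0.186 (Inv3) and 7.77% ± 0.2002 (Inv4), against 4.47% ± 0.0614 in WT. In the outer 100 kb it was 2.09% ± 0.0529, 2.81% ± 0.113, 2.95% ± 0.122 and 3.43% ± 0.133, against 1.73% ± 0.0413 in WT. Of the 31 bins, 30 were above WT in Inv1 and 31 in each of Inv2, Inv3 and Inv4. This rise was thus spread over the whole segment. Contact of single genes with the enhancer region is another measure, and the limits of that region are not given. On the deposited scales 3, 3, 4 and 4 of the 4 genes were above WT in Inv1 to Inv4. Among the 9 distinct values of the neighbourhood, 7, 7, 8 and 8 were, and so were most genes of each table.

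On its other side the segment's contacts with gene-dense sequence differed in direction between alleles. Contact with the stretch from Cnppd1 to Resp18, which Inv1 leaves in place and the other inversions carry along, was 1.53% ± 0.0254 (Inv1), 3.01% ± 0.0795 (Inv2), 4.03% ± 0.0897 (Inv3) and 4.40% ± 0.0947 (Inv4), against 3.55% ± 0.0361 in WT. It was below WT in Inv2, where this stretch is the left end of the inversion, and the left-end stretches of Inv3 and Inv4 were below WT too. The share with the stretch between the Inv3 and Inv2 breakpoints was 2.81% ± 0.0822 in Inv3, against 3.68% ± 0.0414 in WT, and that with the stretch between the Inv4 and Inv3 breakpoints was 1.02% ± 0.0514 in Inv4, against 1.21% ± 0.0210 in WT. The share with the next 1000 kb on that side, past the left end of Inv4, came to 2.71% ± 0.0360 (Inv1), 3.08% ± 0.0852 (Inv2), 5.38% ± 0.101 (Inv3) and 9.53% ± 0.122 (Inv4), against 4.25% ± 0.0407 in WT. Inv4 was at 2.24 times and Inv3 at 1.27 times WT, but observed over expected contact, which corrects for distance, was at 1.28 times WT in Inv4 and 0.945 times in Inv3. Contacts of the segment with itself, counted for each of the 2 bins that meet, were 54.3% (Inv1), 58.4% (Inv2), 60.1% (Inv3) and 54.7% (Inv4), against 58.9% in WT.

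Inv1DelCTCF was compared with Inv1 for how contacts around the muscle genes differed with the deletion. Contact of the segment with the moved part was 5.75% ± 0.0484 in Inv1DelCTCF, against 3.79% ± 0.0393 in Inv1, a difference of 1.9598 percentage points (95% counting interval 1.84 to 2.08). In the 100 kb next to the border it was 10.2% ± 0.108, against 6.42% ± 0.0884 in Inv1. The border between the 2 regions was sought at 75.55 Mb on the inverted chromosome. The nearest boundary lay at 75.58 Mb in Inv1DelCTCF and at 75.56 Mb in Inv1. Its depth was 0.37 in Inv1DelCTCF, against 0.96 in Inv1, and these depths may not belong to the same place. Near the right join a boundary with a depth of 1.02 was found in Inv1, and none was found in Inv1DelCTCF. Contact with the rest of the domain was 17.5% ± 0.0803 in Inv1DelCTCF, against 17.8% ± 0.0785 in Inv1, a difference of -0.295 points (-0.515 to -0.0751). The 2 ends differed in opposite directions. The outer 100 kb had 26.98% ± 0.166 in Inv1DelCTCF, against 25.65% ± 0.159 in Inv1. The 100 kb next to the border had 10.03% ± 0.106, against 11.29% ± 0.112.

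In Inv1 ESCs, which are cultured pluripotent cells, the segment had 5.88% ± 0.0443 of its contacts with the moved part, against 3.79% ± 0.0393 in Inv1 limb buds, and 12.0% ± 0.0640 with the rest of the domain, against 17.8% ± 0.0785. These differences were 2.09 points (1.971 to 2.203) and -5.77 points (-5.97 to -5.57). The outer end of the segment had 18.7% ± 0.138 of its contacts with the rest of the domain in ESCs, against 25.7% ± 0.159 in Inv1 limb buds. Tissue and library cannot be told apart in this comparison, and no WT ESC library was analysed here.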

How the data were processed

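Capture Hi-C was measured in 7 libraries, 1 per condition, grouped by their titles. Reads were mapped to mm9, with Bowtie2 2.2.6 and Juicer named per the submitters' processing notes; the sources used here do not give each tool's role. The deposited maps hold 1 balanced signal value per pair of 10 kb bins from 71 to 81 Mb (Knight-Ruiz, per the file names). The deposited Inv2 to Inv4 maps are a score that goes below 0, and their negative values are those of a WT map subtracted with a weight of 0.423, 0.369 and 0.334: 82.0%, 83.96% and 86.9% of negative pairs outside the inversions lay within 1% of that multiple. The deposited gene tables hold a scaled contact signal (Inv1, WT) or a score that goes below 0 (Inv2 to Inv4). Whether the same subtraction made these tables was not tested, and their scaling is not given in the sources used here.

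Balanced values without negatives were split into whole read pairs and 1 factor per bin; 100% of values below 20 read pairs were whole to within 0.1. Mutant maps follow the rearranged chromosome, and were turned back to WT order by matching bin factors to WT read backwards, with the right breakpoint of Inv2 taken for all alleles. In Inv2 to Inv4 the factors came from negative values and show the frame of the subtracted map. Sparse bins (fewer listed pairs than 25% of the median bin) and 2 bins beside each join were left out. Shares are summed signal as a percent of the total signal of the segment's bins. A contact between 2 bins of the segment counts for each of them, also in the total. Contacts inside the segment therefore weigh more than contacts that leave it. Standard errors and 95% intervals cover counting error only, read pairs carry no molecular identifiers, and those of Inv2 to Inv4 are approximate. Intervals of differences to WT in Inv2 to Inv4 leave out that the same WT map enters both values. Insulation used 200 kb squares, and a boundary's depth was taken within 300 kb. In log2 ratios negative values were set to 0, and the pseudocount understates changes of low values.

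The tables were searched for an exact rebuild from sums of map bins (relative tolerance 2e-06). At best 4 of 83, 4 of 84, 4 of 85, 4 of 86 and 5 of 79 values of Inv1 to Inv4 and WT matched, against 79 of 79 in a table simulated from the WT map, so positions of the start sites were not recovered. Scripts ran in Python 3.11.15 with numpy 2.4.6 and were tested on simulated data. Named genes were the 4 genes, the genes between Resp18 and Epha4, a muscle list, the 3 most similar genes outside the neighbourhood, and the highest gene of each table. The 4 genes and the lists were chosen with earlier results of these data known. Alternatives were other pseudocounts, centring, scaling to the WT sum, region edges, read pairs and distance correction.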

Additional observations from a re-analysis of the deposited data

How the results depend on the processing

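Each condition was 1 library, so every value rests on that library, and the subtraction in Inv2 to Inv4 was taken as deposited. No paired analysis was possible because each condition had 1 library, and no replicate was left out. Recomputing contact from the maps at the start-site bins, and contact of those bins with the moved part, were not run because the tables were not matched to the maps. Counting error limits the smallest map differences, such as that of the outer 100 kb in Inv4 with the rest of the domain (5.96% ± 0.202, against 5.98% ± 0.0762 in WT).

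Other scalings changed the direction of many gene ratios. With the tables scaled to the WT sum, Des had log2 ratios of -1.50 (Inv1), -0.38 (Inv2), -0.99 (Inv3) and -0.70 (Inv4), and Speg -0.73 in Inv1, 0.66 in Inv3 and 0.018 in Inv4. Obsl1 had -0.59, -0.57, -0.0914 and -1.32, and Slc4a3 -1.20, -0.72, -0.93 and -0.996, in Inv1 to Inv4. Centred on the median gene, Des had -0.59 in Inv3 and -0.15 in Inv4, Speg -0.041 in Inv1 and 0.63 in Inv4, Obsl1 0.53 in Inv3 and -1.08 in Inv4, and Slc4a3 -0.16 in Inv1, -0.29 in Inv3 and -0.29 in Inv4. With a pseudocount of 0.05, Des in Inv4 (1.09) and Obsl1 in Inv1 (1.15) passed 2-fold. With 5, Speg in Inv3 (0.95) and Inv4 (0.70) and Obsl1 in Inv3 (0.61) did not. The other 35 ratios kept their direction and their side of 2-fold.

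Over all genes, Inv1 had 37 at least 2-fold above and 4 below WT, Inv2 20 and 17, Inv3 47 and 11, and Inv4 54 and 7. A pseudocount of 0.05 gave 59 and 12 (Inv1), 35 and 36 (Inv2), 26 below (Inv3) and 15 below (Inv4). With 5 there were 17 and 1, 7 and 0, 5 and 0, and 11 and 2 in Inv1 to Inv4. Centring gave 21 and 13 in Inv1, 24 and 29 in Inv3, and 24 and 25 in Inv4. Scaling to the WT sum gave 18 and 12 in Inv1, 13 above in Inv3, and 16 and 12 in Inv4.

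In the maps, observed over expected contact with the rest of the domain was 0.992 times WT in Inv2 and 0.858 times in Inv1 ESC, where the shares were 1.20 and 1.29 times. With the gene-dense side it was 0.945 times in Inv3 and 1.33 times in Inv1 ESC, where the shares were 1.27 and 0.857 times. The cause of these reversals was not tested beyond the correction for distance itself. Other region edges and all bins kept the direction of the shares with these 3 regions in all 6 mutant libraries. Recovered read pairs, run for Inv1, Inv1DelCTCF and Inv1 ESC only, kept it too. The fold of Inv4 with the gene-dense side was 1.28 corrected for distance, where the share was 2.24 times WT.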
